A study of Mus musculus with 9 samples.

Results

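The genes described here are 7 growth-signal genes that are mutated, amplified or active in vascular tumours: Ptprb, Plcg1, Hras, Nras, Braf, Pik3ca and Myc. Each was taken from the deposited table as the probe set whose annotation names that 1 gene, and 6 of the 7 had such a probe set, out of 19938 genes measured in the series. Hras is not analysed here. Each of the 6 had 1 probe set. The tumour group was 3 mouse hepatic angiosarcoma (AS) cell lines, started from endothelial cells of tumour-bearing Notch1 knockout livers and selected in long culture by their growth. Knockout (KO) livers came from 3 MxCre Notch1 lox/lox mice, in which Cre is driven by the interferon-responsive Mx promoter and is therefore not limited to 1 cell type. Wild-type (WT) livers came from 3 Notch1 lox/lox mice without Cre. All livers were from a C57Bl/6 background, and both genotypes received 300 µg of polyinosinic-polycytidylic acid at 4 weeks of age on days 0, 3 and 6. The labels give neither the age at collection nor whether the 3 lines came from 3 animals.

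Receptor tyrosine kinases at the cell surface feed several routes that these genes belong to. Ras proteins such as Nras and Hras switch on the kinase Braf and the ERK cascade, Pik3ca encodes the catalytic subunit of PI3-kinase alpha, and Plcg1 encodes the phospholipase that makes the messengers IP3 and diacylglycerol. Ptprb encodes VE-PTP, an endothelial phosphatase that removes phosphate from Tie2 and from VE-cadherin complexes, and Myc encodes a transcription factor for growth genes. In human angiosarcoma, PTPRB and PLCG1 are recurrently mutated, and MYC is often amplified in tumours that follow radiation. The arrays measured RNA levels and give no mutation, copy number or protein activity.

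Array medians lay between 6.53 and 6.63 log2 units. Notch1 itself was at 8.75, 8.61 and 7.83 in the AS lines, 7.84, 8.75 and 8.52 in KO livers and 11.69, 11.02 and 11.71 in WT livers. The endothelial label of the lines was checked against 20 endothelial markers, and 20 of 20 were lower in the lines than in either liver group. Their mean was 6.19 to 6.54 in the lines, 11.34 to 11.82 in KO livers and 11.36 to 11.44 in WT livers. Cdh5, the gene of VE-cadherin, was at 5.47, 5.66 and 5.45 in the lines, under the array medians. The 10 measured markers of bile duct and epithelium averaged 9.41 to 9.82 in the lines, 6.30 to 6.99 in KO livers and 7.45 to 7.54 in WT livers. These RNA levels do not bear out an endothelial identity of the lines, and the name AS line is kept from the labels. The 18 measured hepatocyte markers averaged 8.08, 9.74 and 7.95 in the lines, 10.22, 12.37 and 8.92 in KO livers and 11.10, 12.29 and 12.23 in WT livers, so KO liver replicate 2 was the most hepatocyte-rich KO array and KO replicate 3 the least. The 13 measured markers of T and NK cells averaged 5.25 to 5.48 in the lines, 6.52 to 6.75 in KO livers and 6.33, 8.71 and 8.62 in WT livers, so WT replicate 1 stood apart from the other WT arrays.

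The 6 genes did not share 1 order of the 3 groups. Ptprb was far lower in the AS lines than in either liver group, and the other genes moved by less than 1 log2 unit. Myc, Plcg1, Braf and Pik3ca were highest in KO liver: each of the 3 KO livers lay above each AS line and each WT liver. That pattern held for 4 of the 6 genes and for 4.92% of all genes. Nras overlapped between AS lines and KO livers, and every one of those 6 arrays lay above the 3 WT livers. In bulk RNA, fewer cells of a type and less RNA per cell cannot be told apart.

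**Figure D1:**
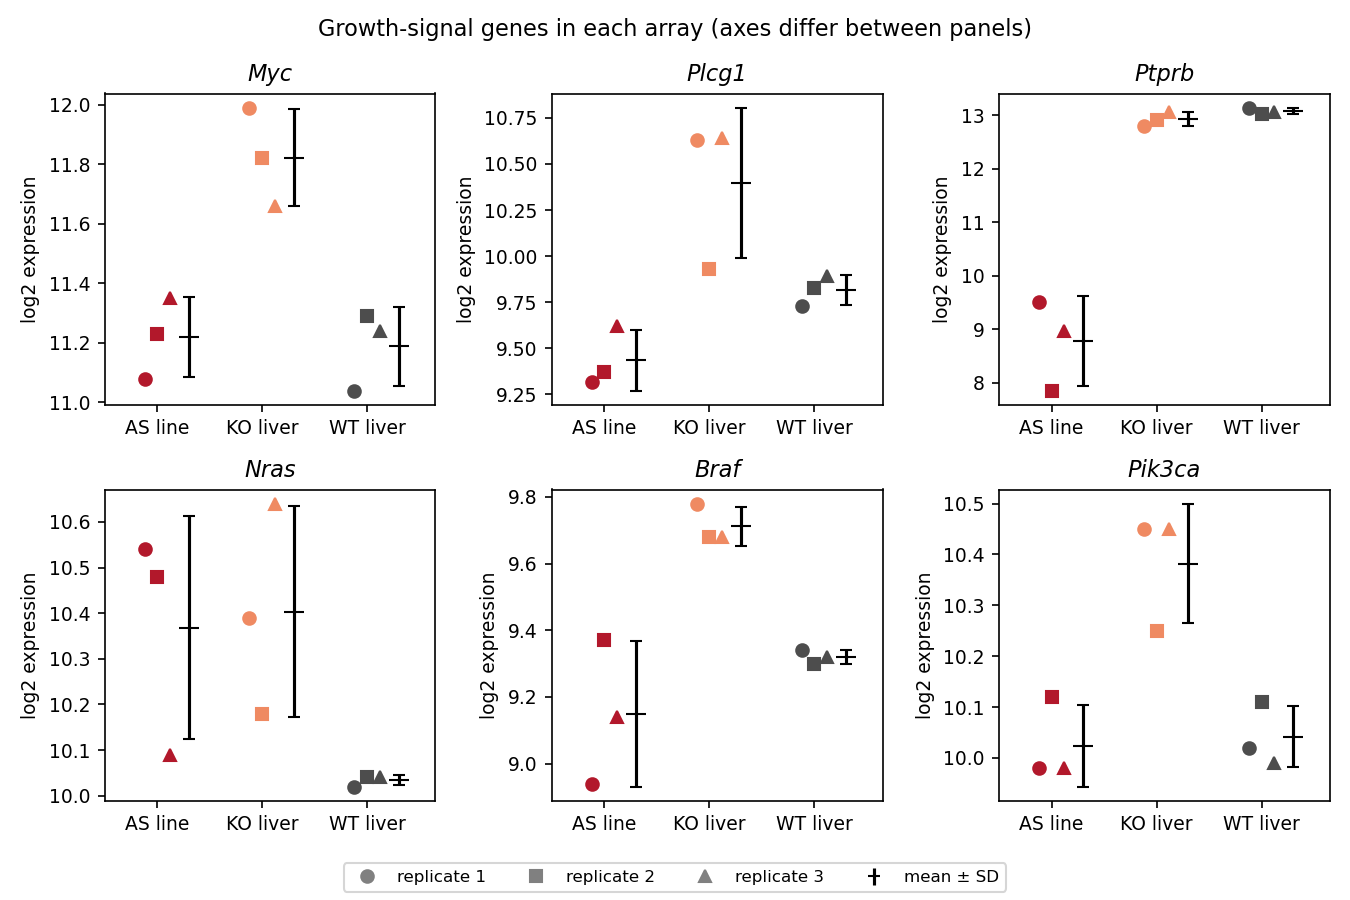
Log2 expression (vertical axis, RMA values) of the 6 measured genes in each AS line, KO liver and WT liver. Symbols mark replicates 1, 2 and 3, and the bar beside them is the mean ± SD (n = 3). Ptprb falls in the AS lines, between 7.85 and 9.51, while Myc, Plcg1, Braf and Pik3ca have their 3 highest values in KO livers.

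Of the 5 genes that lay higher in all KO livers than in all WT livers, the 4 found in the promoter table have their start regions shown here. Each is the 250 bases before the transcription start that the table uses, for Plcg1 (chr2:160731060-160731309, plus strand), Nras (chr3:103058035-103058284, plus strand), Braf (chr6:39725464-39725713, minus strand) and Pik3ca (chr3:32396815-32397064, plus strand), from RefSeq on GRCm38.p6 and read 5′ to 3′. For Braf that start lies inside the gene as RefSeq annotates it (chr6:39603231-39725658), so 195 bases of its window overlap the gene, and the other 3 windows end just before the gene's first base. Capitals mark matches on either strand to a searched motif.
Plcg1: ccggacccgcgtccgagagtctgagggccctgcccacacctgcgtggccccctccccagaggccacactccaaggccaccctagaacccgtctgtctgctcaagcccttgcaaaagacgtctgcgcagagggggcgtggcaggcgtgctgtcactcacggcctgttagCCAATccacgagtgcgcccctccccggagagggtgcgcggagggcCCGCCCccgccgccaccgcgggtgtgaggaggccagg
Nras: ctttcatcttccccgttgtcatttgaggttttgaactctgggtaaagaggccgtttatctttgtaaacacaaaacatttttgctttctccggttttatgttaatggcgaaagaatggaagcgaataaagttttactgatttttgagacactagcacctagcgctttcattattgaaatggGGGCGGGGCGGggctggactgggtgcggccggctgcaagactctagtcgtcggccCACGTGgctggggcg
Braf: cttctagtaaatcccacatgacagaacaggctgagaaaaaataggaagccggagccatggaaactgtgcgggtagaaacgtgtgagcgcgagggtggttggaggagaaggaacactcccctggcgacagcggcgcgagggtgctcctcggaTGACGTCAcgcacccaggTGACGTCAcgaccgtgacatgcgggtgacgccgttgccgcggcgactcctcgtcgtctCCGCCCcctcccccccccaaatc
Pik3ca: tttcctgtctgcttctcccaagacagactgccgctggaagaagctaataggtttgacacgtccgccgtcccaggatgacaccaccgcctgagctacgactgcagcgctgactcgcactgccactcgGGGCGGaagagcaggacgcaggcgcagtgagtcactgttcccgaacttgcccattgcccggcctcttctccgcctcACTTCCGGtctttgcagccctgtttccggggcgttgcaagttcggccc

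A set of 7 motifs was searched on both strands, the last of them added after the sequences were seen. Nras held 1 E-box of MYC (CACGTG), 15 bases before its start, and 6.02% of 32851 upstream windows of the same length hold that motif. Its pair of GC-boxes, 70 and 65 bases before the start, share 1 base, and 32.7% of windows hold a GC-box (GGGCGG). Braf held 2 copies of the cyclic-AMP response element (TGACGTCA), the motif added later, 99 and 81 bases before the table's start and inside the annotated gene, and 1.55% of windows hold it. Pik3ca held 1 match to the ETS site (CCGGAAGT), 48 bases before the start, against 2.88% of windows. Plcg1 held 1 CCAAT match, 82 bases before the start, against 33.8% of windows. All 4 windows held a GC-box, and none of the 4 held the letters of RBPJ, the DNA-binding partner of Notch (GTGGGAA, in 5.42% of windows). The TATA box (TATAAA, in 12.4% of windows) was in none of them either. The windows were 71.2% GC in Plcg1, 48.4% in Nras, 62.0% in Braf and 61.6% in Pik3ca, against a median of 52.4% over all windows. Myc and Ptprb were not matched in the promoter table. These matches describe letters and were not tested as binding sites.

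Between AS lines and KO livers, 5 of the 6 genes were lower in the lines at a limma adjusted p under 0.05 and none was higher. Of all 19938 genes, 10.1% passed in that direction and 21.4% in either. The fall was 17.7-fold for Ptprb and at most 1.95-fold for Plcg1, Myc, Braf and Pik3ca. The median difference of the 6 genes was -0.58 log2 units, against 0.05 over all genes and 0.14 over the 9969 brighter genes, which include all 6. The groups did not overlap for these 5 genes, lower in the lines, and 16.7% of all genes and 22.1% of the brighter genes behaved so. With 3 arrays a group, the exact permutation test cannot go below 0.1, the 2-sided p reached by each of these 5 genes.

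Between AS lines and WT livers, Ptprb alone of the 6 passed, lower in the lines, against 11.1% of all genes that passed in that direction and 28.7% in either. Plcg1 and Ptprb lay below WT without overlap, as 19.5% of all genes did, and Nras lay above WT without overlap, as 28.3% did. Myc, Braf and Pik3ca overlapped with WT liver. With 75th percentile scaling the all-gene median of this comparison became -0.19, against 0.02 as deposited, and the difference of Myc changed sign. The 2 comparisons of the AS lines share the AS arrays, and each shares a liver group with the third comparison.

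Between KO and WT livers, none of the 6 genes passed, and 0% of all genes did: the smallest limma adjusted p was 0.0995. Without adjustment, 5 of the 6 had p under 0.05, as did 22.5% of all genes. Myc, Plcg1, Nras, Braf and Pik3ca were higher in every KO liver than in every WT liver, by 0.34 to 0.63 log2 units, and 19.2% of all genes and 31.8% of the brighter genes were placed so. The median of the 6 was 0.38, against -0.00 over all genes and 0.17 over the brighter genes. With 75th percentile scaling the all-gene median became -0.18, and the 5 genes remained positive, at 0.16 to 0.45. KO liver replicate 2, the array with the highest hepatocyte mean of its group, had the lowest KO value of Plcg1, Nras and Pik3ca. Left out, it gave 4 genes past the threshold: Plcg1 (0.81, adjusted p = 0.0171), Nras (0.48, adjusted p = 0.0497), Braf (0.41, adjusted p = 0.0341) and Pik3ca (0.41, adjusted p = 0.0357), with 1949 genes past it in all. With the hepatocyte mean as a covariate, added after the data were seen, the differences were 0.71 for Myc, 0.34 for Plcg1, 0.22 for Nras, 0.38 for Braf and 0.27 for Pik3ca, and none of the 6 passed, as without it. All 13 T and NK cell markers had negative differences, with a median of -1.41, and none passed; without WT replicate 1, none of the 6 genes passed either. The part of these cells in the differences was not tested.

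**Figure D2:**
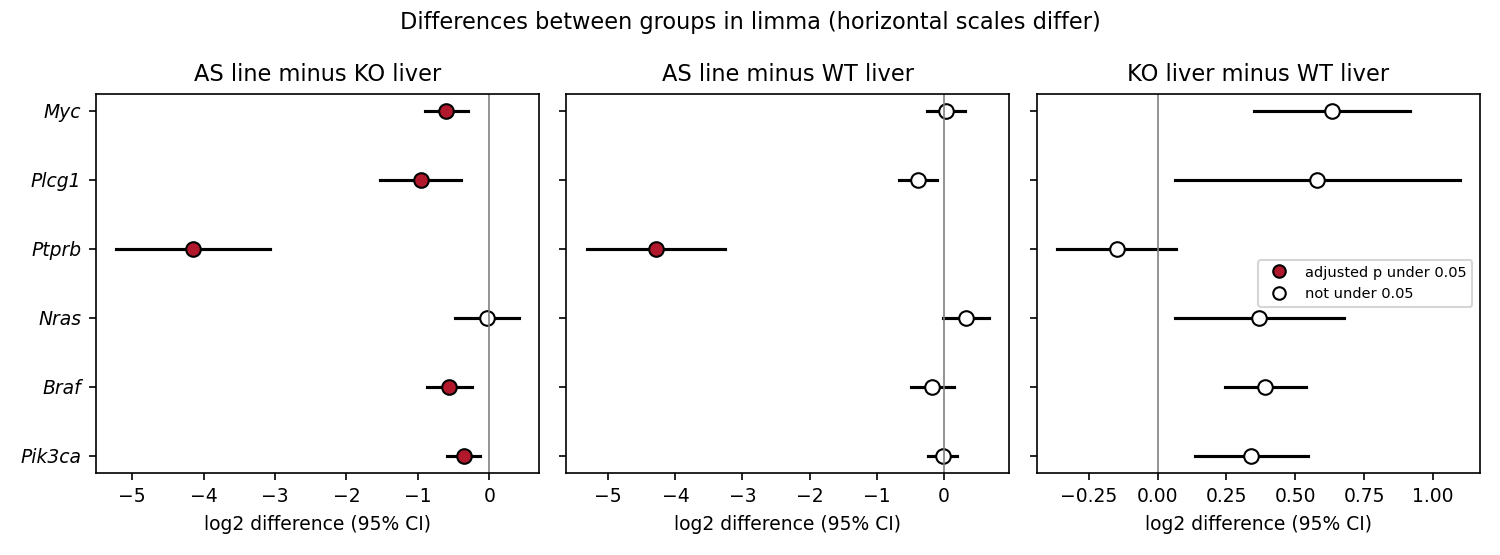
Difference of group means in log2 units (horizontal axis, whose scale differs between panels) with its 95% confidence interval from limma, for the 6 genes in the 3 comparisons. Filled points have an adjusted p under 0.05: 5 genes between AS lines and KO livers, Ptprb alone between AS lines and WT livers, and none between KO and WT livers.

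Ptprb had log2 values of 9.51, 7.85 and 8.97 in the AS lines, against 12.79, 12.91 and 13.06 in KO livers and 13.14, 13.03 and 13.05 in WT livers. The 3 lines lay far below all 6 livers, and the liver groups overlapped. The lines averaged 8.78 ± 0.85, KO livers 12.92 ± 0.13 and WT livers 13.07 ± 0.06 (SD, n = 3 each). The difference was -4.14 (SE 0.430) from KO livers, with a limma adjusted p of 0.0029, and -4.29 (SE 0.416) from WT livers, with an adjusted p of 0.00132. Against the KO mean the lines kept 9.40%, 2.98% and 6.47% of the level, so replicate 2 was lowest. The spread among lines was 1.66 log2 units, a 3.16-fold range, larger than that of 94.7% of genes. Between KO and WT livers the difference was -0.15 (95% CI -0.37 to 0.07, limma adjusted p = 0.356).

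Counts of listed genes, here and below, stand beside these shares of all genes. From KO livers 11.4% were higher and 10.1% lower in the AS lines, and from WT livers 17.6% and 11.1%. The list around Ptprb held 8 measured genes, which include Tie2 ligands and junction genes beside endothelial receptors. From KO livers 4 were lower and 1 higher in the AS lines, with a median of -3.72, and from WT livers 5 were lower and 1 higher, with a median of -3.50. The higher ones, named after their values were seen, were Angpt1, a Tie2 ligand, from KO livers (0.94) and Jup, the gene of plakoglobin, from WT livers (1.06). Cdh5 averaged 5.52 ± 0.11 in the lines and 12.91 ± 0.16 in KO livers, a difference of -7.38 (limma adjusted p = 1.66e-05). Tek, the gene of Tie2, differed by -6.58 (limma adjusted p = 3.47e-05), and Kdr, the gene of VEGF receptor 2, by -7.01 (limma adjusted p = 2.86e-05). Of the 18 other receptor-type tyrosine phosphatases measured, 4 were higher and 3 lower than in KO livers, so the family did not move one way. Ptprf, a phosphatase of epithelial and neural cells, was higher by 2.76 (limma adjusted p = 0.0295), while Ptprm, which mediates contact between cells, differed by -3.60 (limma adjusted p = 0.00181). The 4 higher phosphatases became 2 without KO replicate 1 or 3. Ptprb moved in the direction of its partners Cdh5, Tek and Kdr, with a smaller difference, and the endothelial marker mean given above moved with it; its part in the result was not tested.

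Plcg1 had log2 values of 9.32, 9.37 and 9.62 in the AS lines, against 10.63, 9.93 and 10.64 in KO livers and 9.73, 9.83 and 9.89 in WT livers. The 3 groups did not overlap: lines were lowest, WT livers between and KO livers highest, although KO replicate 2 lay only 0.03 above the highest WT liver. The lines averaged 9.44 ± 0.16, KO livers 10.40 ± 0.41 and WT livers 9.82 ± 0.08. The lines were at 51.3% of the KO mean, a difference of -0.96 (SE 0.226, 95% CI -1.53 to -0.40, limma adjusted p = 0.0363). Among the fits that leave out an array, this call was lost without KO replicate 1 (adjusted p = 0.124), KO replicate 3 (0.119) or any AS line (0.0925, 0.0963 and 0.0622). Against WT livers the difference was -0.38 (limma adjusted p = 0.0542), and it passed with scaling to the 75th percentile (-0.59), with quantile normalization repeated (-0.54), with array weights (-0.37) and without AS replicate 3 (-0.48). KO minus WT was 0.58 (SE 0.208, 95% CI 0.06 to 1.10, limma adjusted p = 0.192). The 0.71 log2 range of Plcg1 among KO livers exceeded that of 87.8% of genes.

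Among 12 other phospholipase C genes, 2 were higher and 3 lower in the AS lines than in KO livers, and the same numbers held against WT livers. The 3 lower ones became 1 without KO replicate 1, KO replicate 3 or AS replicate 3. Plch1 differed by 2.60 (limma adjusted p = 0.00058) from KO livers, and Plcb2, an isoform of blood cells, by -2.05 (limma adjusted p = 0.00155). Downstream, 17 genes for protein kinase C, IP3 receptors and calcineurin-NFAT gave 3 higher and 5 lower than in KO livers. Prkch, a protein kinase C isoform of endothelium and lymphocytes, averaged 5.18 ± 0.25 in the lines and 11.65 ± 0.12 in KO livers, a difference of -6.47 (limma adjusted p = 3.47e-05). Prkcq, the isoform of T cells, differed by -4.49 (limma adjusted p = 0.000244). Of the 13 T and NK cell markers, 10 were lower in the lines than in KO livers, and their part in these falls was not tested. Between KO and WT livers none of these genes passed, and Ppp3ca, a calcineurin catalytic subunit, had 0.53 (limma adjusted p = 0.106).

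Nras had log2 values of 10.54, 10.48 and 10.09 in the AS lines, against 10.39, 10.18 and 10.64 in KO livers and 10.02, 10.04 and 10.04 in WT livers. Lines and KO livers overlapped, and both lay above all WT livers, AS replicate 3 only by 0.04. The lines averaged 10.37 ± 0.24, KO livers 10.40 ± 0.23 and WT livers 10.03 ± 0.01 (SD, n = 3 each), and the range among WT livers was smaller than that of nearly all genes. The difference of lines from KO livers was -0.03 (95% CI -0.48 to 0.41, limma adjusted p = 0.923). From WT livers it was 0.33 (95% CI -0.01 to 0.68, limma adjusted p = 0.132), and without AS replicate 3 it was 0.47 and passed (adjusted p = 0.0167). KO minus WT was 0.37 (95% CI 0.06 to 0.68, limma adjusted p = 0.174). The E-box and GC-boxes shown for Nras stand beside these values with no test of their use.

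The Ras family did not move as one in the AS lines. Of 8 other Ras-family GTPases, 2 were higher and 1 lower than in KO livers. Rras2, a Ras relative with transforming activity, was at 10.66, 12.04 and 10.98 in the lines, 8.86, 8.98 and 8.86 in KO livers and 8.84, 9.17 and 9.42 in WT livers, and it rose by 2.33 over KO livers (limma adjusted p = 0.0105). Mras rose by 1.73 (limma adjusted p = 0.00954), and Rap1b, which supports cell adhesion, fell by 1.10 on the log2 scale (limma adjusted p = 0.0069). Of 12 genes that activate Ras, 6 were lower and 1, Rasgrf2, higher. Over the fits that leave out an array, the lower count ranged from 4 to 6 and the higher count from 0 to 1. Rasgrf2 was at 7.1, 7.86 and 9.22 in the lines and at 5.77, 6.23 and 5.67 in KO livers. The WT livers, at 7.35, 7.25 and 7.17, overlapped with the lines. Rasgrp1, an exchange factor of lymphocytes, differed by -3.62 (limma adjusted p = 7.87e-05), Rasgrp3 by -2.90 and Rasgrp2 by -2.64. Of 10 genes that restrain Ras, 4 were lower and none higher, among them Rasal2 (-3.16, limma adjusted p = 0.000826) and Spred1 (-1.06, limma adjusted p = 0.0119), and these 4 became 1 without KO replicate 1 and 2 without KO replicate 3. In KO against WT livers Spred1 had 0.61 (limma adjusted p = 0.116) and Rasgrf2, a Ras exchange factor best known from neurons, -1.36 (limma adjusted p = 0.0995), neither past the threshold.

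Braf had log2 values of 8.94, 9.37 and 9.14 in the AS lines, against 9.78, 9.68 and 9.68 in KO livers and 9.34, 9.30 and 9.32 in WT livers. Every KO liver lay above the other 6 arrays, and AS replicate 2 lay just above the WT livers while the other lines lay below them. The lines averaged 9.15 ± 0.22, KO livers 9.71 ± 0.06 and WT livers 9.32 ± 0.02. The lines were at 67.8% of the KO mean, a difference of -0.56 (SE 0.126, 95% CI -0.88 to -0.24, limma adjusted p = 0.032). That call was lost with an intensity trend (adjusted p = 0.063) and, among the fits that leave out an array, without KO replicate 1 (0.119), 2 (0.0782) or 3 (0.0996) or AS replicate 3 (0.081). The difference from WT was -0.17 (95% CI -0.49 to 0.15, limma adjusted p = 0.382). KO minus WT was 0.39 (SE 0.0596, 95% CI 0.24 to 0.54, limma adjusted p = 0.0995), equal to the smallest adjusted p of that comparison.

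Around Braf, 10 other genes of the Raf-MEK-ERK cascade were measured. From KO livers 2 were higher and 2 lower in the AS lines, and from WT livers 4 were higher and 1 lower. Map3k8, a kinase that activates MEK in immune cells, averaged 6.26 ± 0.19 in the lines and 10.92 ± 0.14 in KO livers (limma adjusted p = 5.51e-05). Pebp1, which binds and restrains Raf kinases, was higher by 1.46 (limma adjusted p = 0.000247), and Map2k1, the gene of MEK1, was higher than in WT livers by 0.98 (limma adjusted p = 0.0442). Of 16 genes commonly induced by ERK, 3 were higher and 5 lower than in KO livers, and the 5 became 3 without any 1 KO liver or without AS replicate 1. Epha4 was at 10.05, 8.86 and 9.86 in the lines and at 5.63, 5.88 and 6.02 in KO livers (difference 3.75, limma adjusted p = 0.00178). Egr1 fell by 2.73 and Spry4, a feedback inhibitor of receptor signalling, by 2.68 on the log2 scale (limma adjusted p = 0.00655 and 0.0076). Dusp5, a nuclear ERK phosphatase, was lower in all KO than in all WT livers, by -0.81 (limma adjusted p = 0.0995), and did not pass.

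Pik3ca had log2 values of 9.98, 10.12 and 9.98 in the AS lines, against 10.45, 10.25 and 10.45 in KO livers and 10.02, 10.11 and 9.99 in WT livers. The lines and WT livers overlapped, and each KO liver lay above both. The lines averaged 10.02 ± 0.08, KO livers 10.38 ± 0.12 and WT livers 10.04 ± 0.06. The lines were at 78.0% of the KO mean, a difference of -0.36 (SE 0.0911, 95% CI -0.59 to -0.13, limma adjusted p = 0.0462). Its adjusted p was the highest of the 5 calls: 5 alternatives to the processing and 5 of the 6 fits that leave out an array gave an adjusted p above 0.05, up to 0.159 without KO replicate 1. The difference from WT was -0.02 (95% CI -0.23 to 0.19, limma adjusted p = 0.906), and its sign changed with the array left out. KO minus WT was 0.34 (SE 0.0822, 95% CI 0.14 to 0.54, limma adjusted p = 0.116).

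Several other PI3-kinase genes differed by more than Pik3ca did. Of 13 catalytic and regulatory subunits, 6 were lower and 3 higher in the AS lines in each comparison, with medians of -0.55 from KO livers and -0.23 from WT livers. Pik3cg, the gamma subunit of blood cells, averaged 5.75 ± 0.07 in the lines and 8.50 ± 0.10 in KO livers (difference -2.74, limma adjusted p = 7.19e-05). Pik3r2, a regulatory subunit, was 2.02 higher than in WT livers (limma adjusted p = 0.00312). Inpp5d, the gene of the blood-cell phosphatase SHIP1, differed by -4.25 from KO livers (limma adjusted p = 3.6e-05), and it was 1 of 2 lower genes among 9 PI3-kinase brakes. With dim genes left out, 2023 of the 9969 brighter genes were higher in the lines than in KO livers and 3195 than in WT livers. Beside that background, of 10 AKT and mTOR effectors, 2 were higher and none lower than in KO livers, and 4 were higher than in WT livers. The 2 became 1 without KO replicate 1, AS replicate 1 or AS replicate 2, 0 without KO replicate 3 and 4 without AS replicate 3, and the 4 became 2 without any 1 WT liver, without AS replicate 2 or with either rescaling. Mlst8, a subunit of both mTOR complexes, had 1.10 (limma adjusted p = 0.0166) and Eif4ebp1, the translation repressor that mTOR phosphorylates, 0.90 (limma adjusted p = 0.0188) over KO livers. Markers of Kupffer cells averaged 5.97 to 6.24 in the lines and 11.13 to 11.77 in KO livers, beside the falls of Pik3cg and Inpp5d, and their part was not tested.

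Myc had log2 values of 11.08, 11.23 and 11.35 in the AS lines, against 11.99, 11.82 and 11.66 in KO livers and 11.04, 11.29 and 11.24 in WT livers. Lines and WT livers overlapped, and the 3 KO livers were highest. The lines averaged 11.22 ± 0.13, KO livers 11.82 ± 0.16 and WT livers 11.19 ± 0.13. The lines were at 65.8% of the KO mean, a difference of -0.60 (SE 0.120, 95% CI -0.90 to -0.30, limma adjusted p = 0.0218). Among the fits that leave out an array, that call was lost without KO replicate 1 (adjusted p = 0.0728), KO replicate 2 (0.0625) or AS replicate 2 (0.0579). From WT livers the difference was 0.03 (95% CI -0.26 to 0.32, limma adjusted p = 0.873), and it was -0.18 after scaling to the 75th percentile. KO minus WT was 0.63 (SE 0.114, 95% CI 0.35 to 0.92), a 1.55-fold difference with a limma adjusted p of 0.0995.

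The AS lines, whose Myc overlapped with that of WT livers, had higher levels of many MYC target genes. The targets work mainly in ribosome production, nucleotide synthesis and replication, and their list was chosen with earlier results of these data known. Of 51 targets measured, 15 were higher and none lower in the AS lines than in KO livers, beside 11.4% of all genes higher. Against WT livers 25 were higher and none lower, beside 17.6% of all genes. The median target difference was 0.78 from KO livers and 1.11 from WT livers, against 0.14 and 0.32 over the brighter genes. With dim genes left out, 2023 of the 9969 brighter genes were higher in the lines than in KO livers and 3195 than in WT livers. Per array the targets averaged 10.35, 9.73 and 9.56 in the lines, 9.31, 9.07 and 9.30 in KO livers and 8.69, 9.01 and 9.01 in WT livers, so AS replicate 1, with the lowest Myc of the lines, had the highest target mean. Nme1, a nucleotide kinase gene, was at 10.18, 9.50 and 9.25 in the lines and at 7.52, 7.76 and 7.90 in KO livers (difference 1.92, limma adjusted p = 0.007). Tfrc, the transferrin receptor gene, had 1.88 (limma adjusted p = 0.0491), and Slc19a1, a folate carrier gene, 1.63 (limma adjusted p = 0.00449).

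The count of 15 targets became 8, 9 and 7 without KO replicates 1, 2 and 3, with 1 lower target in the second of these, and the 25 against WT livers became 16 without WT replicate 2. Over all fits that leave out an array, the 15 ranged from 7 to 19 and the 25 from 16 to 29. Between KO and WT livers 46 of the 51 targets had positive differences and 21 were higher without overlap, with a median of 0.32, and none passed. Over all genes 49.8% were positive and 19.2% higher without overlap, and over the brighter genes 31.8% were higher without overlap, with a median of 0.17. Without KO replicate 2, 9 targets passed. The 17 measured proliferation markers averaged 10.84, 7.85 and 8.95 in the lines, 9.46, 8.21 and 9.11 in KO livers and 7.43 to 7.65 in WT livers, and their part in the target levels was not tested. Among 17 partners and antagonists of MYC, 1 was higher and 3 lower in the lines than in KO livers. Mxd1, an antagonist that competes for MAX, was at 7.99, 8.28 and 8.51 in the lines and at 9.96, 9.80 and 9.91 in KO livers (difference -1.63, limma adjusted p = 0.00179). Ruvbl2, a chromatin cofactor of MYC, rose by 1.00 (limma adjusted p = 0.0486).

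**Figure D3:**
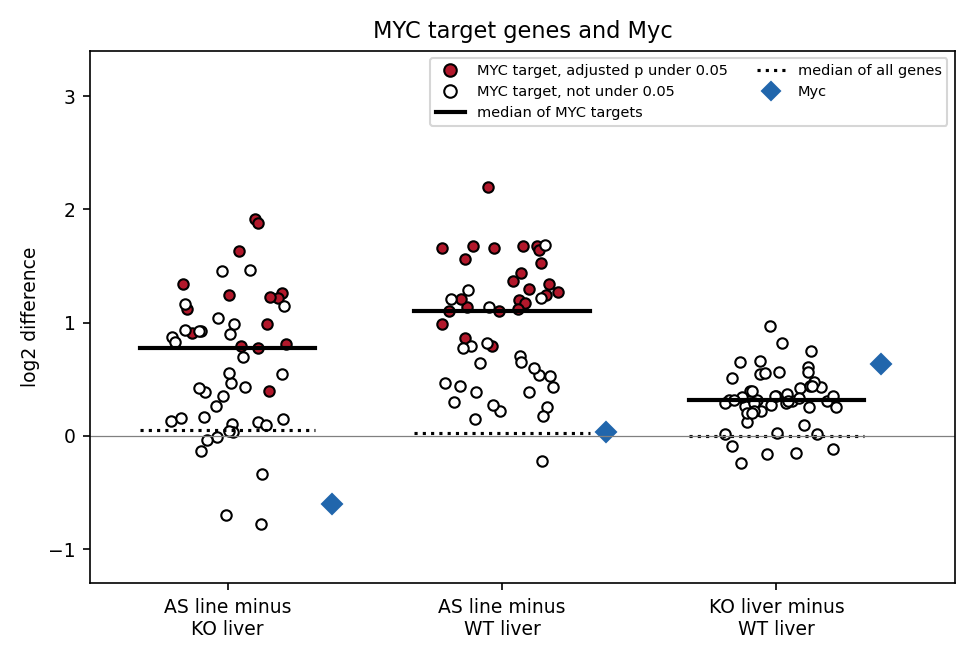
Log2 difference (vertical axis) of each of 51 MYC target genes, as circles, and of Myc, as a diamond, in the 3 comparisons. Solid lines are the target medians (0.78, 1.11 and 0.32), dotted lines the medians of all genes, and filled circles have a limma adjusted p under 0.05. Myc lies below most targets between AS lines and KO livers and above most of them between KO and WT livers.

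Upstream of all these routes, receptors and ligands each held genes that moved either way. From KO livers the 21 receptors had a median of -0.02, with 10 positive and 11 negative. The 21 ligands had a median of 0.59, with 14 positive and 7 negative. Of 21 receptor tyrosine kinases, 8 were lower and 1 higher in the AS lines than in KO livers, led by Kdr, Mertk (-6.11, limma adjusted p = 3.47e-05) and Flt1 (-4.58, limma adjusted p = 0.00359), receptors of endothelium and macrophages. The higher one, named after its value was seen, was Met, the receptor of Hgf (3.45, limma adjusted p = 0.0481), and it was not past the threshold without KO replicate 1, KO replicate 3 or AS replicate 1. Of 21 ligands, 4 were higher and 3 lower than in KO livers, and 8 higher and 3 lower than in WT livers. The 4 became 2 without any 1 KO liver, and the 8 became 3 without any 1 WT liver and 5 without AS replicate 3. Hgf, which stellate and endothelial cells of liver supply, differed by -5.65 (limma adjusted p = 0.000143), while Nrg1, an ErbB ligand, differed by 1.82 (limma adjusted p = 0.00542) from KO livers. Of 15 further genes named in angiosarcoma, 7 were lower and none higher than in KO livers, with a median of -1.01. Of these 7, Kdr, Flt1, Flt4, Kit and Tek also stand in the receptor or partner lists. Over the 17 pathway lists, which hold 261 measured genes and none of the 6 described above, 44 were higher (16.9%, against 11.4% of all genes) and 56 lower (21.5%, against 10.1%) than in KO livers. From WT livers 74 were higher (28.4%, against 17.6% of all genes) and 55 lower (21.1%, against 11.1%), and none passed between KO and WT livers. These all-gene shares are not matched for brightness. With dim genes left out, 2023 of the 9969 brighter genes were higher and 1591 lower in the lines than in KO livers. From WT livers 3195 of the brighter genes were higher and 1630 lower. The 100 genes of the KO comparison became 65 and 64 without KO replicates 1 and 3, and counts of 1 or 2 genes in a single list often changed with the array left out.

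**Figure D4:**
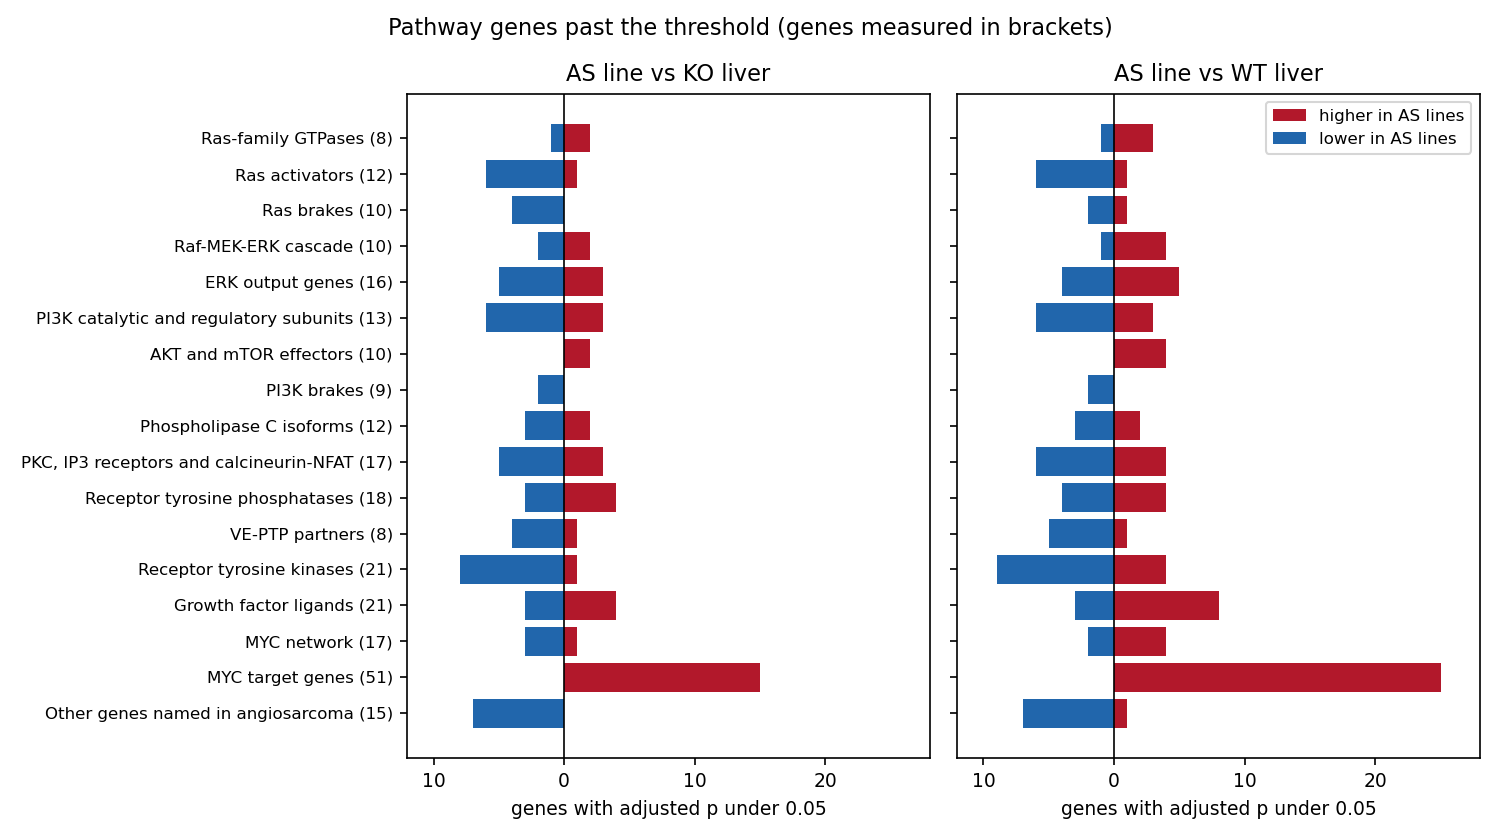
Number of genes with a limma adjusted p under 0.05 (horizontal axis) in each of 17 pathway lists, higher in AS lines to the right of 0 and lower to the left, against KO livers and against WT livers. The bracket gives the genes measured. MYC targets have 15 and 25 higher genes and no lower one.

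The genes nearest to each member in their pattern over the 9 arrays were found by the root mean square distance between mean-centred log2 values. Braf was followed by Mast3 (0.0517), Tgfbrap1 (0.0687) and Mob2 (0.0779), all far under its own variation of 0.259. Pik3ca had Pcdhb10 (0.04), Rnf20 (0.0665) and Son (0.0703) beside its own 0.18. Pcdhb10 averaged only 4.34 in AS lines, 4.68 in KO livers and 4.4 in WT livers, under the array medians. Nras had Commd8 (0.0586), Washc4 (0.0719) and Ppil4 (0.0745) beside 0.23. Plcg1 had Pcdhb19 (0.0652), Fndc8 (0.0882) and Lmtk2 (0.0905) beside 0.448. Pcdhb19 was also under the array medians, at 4.68 in AS lines, 5.62 in KO livers and 5.1 in WT livers. Myc had Msl1 (0.0925), Stim1 (0.134) and Lcorl (0.134) beside 0.315. Ptprb had the largest variation, 2.03, and its nearest genes were Adam23 (0.316), Cyria (0.358) and Lrrc32 (0.367). Members themselves were left out of this search. The nearest genes were picked for their small distances, and shared regulation was not tested.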

How the data were processed

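Total RNA was labelled with a whole-transcript biotin kit and hybridised to 1-colour arrays, per the labels' protocols. The authors deposited log2 values, 1 per probe set and array, which per the submitters' processing notes come from RMA and the oligo package, without a version in the sources used. All 35556 probe sets had values, with no detection calls, so low values can be background and shrink fold changes. Probe sets naming 1 gene (21789) were kept, with the highest mean over 9 arrays where a gene had several, which left 19938 genes. Levels of different probe sets were not compared.

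Each pair of groups was fitted on its 6 arrays with limma 3.58.1 in R 4.3.3 (lmFit, eBayes, 2-sided), and p-values were adjusted by Benjamini-Hochberg across the 19938 genes, at a threshold of 0.05. The code was tested on simulated data. The labels call arrays biological replicates without naming separate animals for the lines. The p-values weigh each difference against the spread between these samples. If the lines share an animal, that spread may be smaller than the spread between tumours. Members and pathway lists were chosen with earlier results of these data known. Named genes are the members, Notch1, from each list the 3 largest changes past the threshold (2 largest where none passed) and the 3 nearest patterns per member. The alternatives tried were fitting all 9 arrays at once, a block for the replicate number, an intensity trend, a dim-gene filter, 75th percentile scaling, repeated quantile normalization, other probe-set rules, array weights, other thresholds, leaving out each array and, added later, a hepatocyte covariate. Promoter windows came from RefSeq. Hras and other genes with no probe set of their own in the annotation are not analysed here.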

Additional observations from a re-analysis of the deposited data

How the results depend on the processing

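Between AS lines and KO livers, same-numbered arrays had correlations of 0.24, 0.34 and 0.07, and differently numbered arrays had -0.30 to 0.20. Between AS lines and WT livers these were 0.04, 0.17 and -0.16, against -0.17 to 0.15. Between KO and WT livers they were 0.31, 0.43 and -0.39, against -0.48 to 0.47. These values do not settle whether the replicate numbers pair the samples. With the replicate block, 2 of the 6 genes passed between AS lines and KO livers in place of 5: the limma adjusted p was 0.0849 for Myc, 0.0852 for Braf and 0.139 for Pik3ca. The count was 3 with an intensity trend, 1 with at least a 2-fold change and 1 to 3 with an array left out. Over all genes, 4275 passed there, 2638 with a 2-fold change and 2281 to 4048 with an array left out. Against WT livers 1 of the 6 passed, and 2 did with 75th percentile scaling, with repeated quantile normalization, with array weights or at an adjusted p under 0.10, and 1 to 3 with an array left out. Over all genes, 5715 passed, 3492 with a 2-fold change and 3397 to 5435 with an array left out; scaling turned 3506 higher and 2209 lower into 2476 and 2884, and 74 and 55 pathway genes into 64 and 65. Between KO and WT livers 0 of the 6 passed in limma, 5 with array weights, 2 at 0.10 and 0 to 4 with an array left out. Over all genes 0 passed, 2 with 9 arrays in 1 fit, 1 with all probe sets, 5744 with array weights, 366 at 0.10 and 0 to 1949 with an array left out. The weights were lowest for KO replicate 2 (0.315) and WT replicate 1 (0.274). The difference of Nras from KO livers turned to 0.09 without KO replicate 3 and 0.11 without AS replicate 3, in a range from -0.1455 with an array left out. That of Myc from WT livers turned to -0.18 with scaling, -0.0078 with array weights, -0.0444 without WT replicate 1 and -0.03 without AS replicate 3, in a range up to 0.1009. That of Pik3ca from WT livers turned to 0.0165 without WT replicate 2, and to 0.01 without AS replicate 1 or 3, in a range from -0.0636. Of 276 alternatives for single genes, 228 kept direction and side of the threshold, 25 lost the call, 14 gained it and 9 turned. Genes not called at first could not lose a call, and other probe-set rules could not change genes with 1 probe set. All 25 losses were between AS lines and KO livers, of 15 alternatives per gene: 4 for Myc, 5 for Plcg1, 6 for Braf and 10 for Pik3ca. Causes were not tested. Ptprb passed from both liver groups under every alternative listed. Only 3 arrays a group limit the precision.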
